A study of Mus musculus with 54 samples.

Results

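The histone cluster genes were taken as all symbols in the deposited count tables that begin with Hist1h, Hist2h, Hist3h or Hist4h, which gave 68 of the 23284 genes in each table. They comprised 6 genes for the linker histone H1, 18 for H2A, 19 for H2B, 12 for H3 and 13 for H4. RNA was measured in mouse male germ cells of 4 genotypes that differ in CTCF, the ubiquitous zinc finger protein of chromatin architecture, and in its testis-specific paralog BORIS, encoded by Ctcfl. The wild-type group (WT) carried 2 intact alleles of each gene, CTCF HET was Ctcf+/- with intact Boris, BORIS KO was Boris-/- with intact Ctcf, and the compound mutant (CM) joined Ctcf+/- to Boris-/-. All males were C57BL/6 and aged 3 months, and a preparation pooled the germ cells of 4 mice. CM males were bred from CTCF HET females and BORIS KO males. Each genotype had 3 libraries in whole testis (suspensions enriched for germ cells by enzyme digestion, rRNA-depleted total RNA), in round spermatids (RS, poly(A) RNA) and in spermatocytes (SC, poly(A) RNA), except for WT SC with 2. The labels of the purified cells gave a purity of 93.7% for RS and 81.5% for SC.

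Most histone genes sit in clusters and are transcribed in S phase, when new nucleosomes are assembled on replicating DNA. Their mRNAs are the only known metazoan mRNAs that do not end in a poly(A) tail: a short stem-loop after the stop codon is bound by the stem-loop binding protein SLBP, and the transcript is cut just behind it. Spermatocytes add testis-specific histones ahead of the exchange of histones for transition proteins and protamines in spermatids. The testis-specific members in these tables were Hist1h1t (H1t, a linker histone of pachytene spermatocytes), Hist1h2aa (TH2A) and Hist1h2ba (TH2B).

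The members lay in 5 groups on the mm9 genome. The Hist1 genes formed 2 blocks on chromosome 13, with 23 members in chr13:21807632-22135545 and 31 in chr13:23622919-24026720. The Hist2 cluster held 10 members in chr3:96023839-96082924, the Hist3 cluster 3 members in chr11:58762413-58770176, and Hist4h4 stood alone at chr6:136752589-136752900. In the mm9 annotation, 61 of the 66 members with an annotated stop codon had the histone stem-loop within 150 bases after the stop (92.4%), at a median of 31 bases, whereas 68 of 20243 protein-coding genes had such a match (0.336%). Of the 7 matches outside the members, one was H2afx, the gene of the DNA-damage variant H2A.X. The members with a stop codon and no match were Hist1h2an, Hist1h3g, Hist1h4a, Hist2h2bb and Hist2h2be.

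The stem-loop sites of the members that the results below turn on are shown with the 16 bases of the stem-loop in capitals, from 3 bases before it to 11 bases after it, as read from mm9 on the coding strand.
Hist1h1t, chr13:23788391-23788420, plus strand: aaaGGCTCTTTTAAGAGCCacttacatact
Hist1h2ba, chr13:24025588-24025617, minus strand: aaaGGCTCTTTTAAGAGCCacccacctctt
Hist1h2aa, chr13:24026757-24026786, plus strand: aaaGGCTCTTTTCAGAGCCaccttcatttt
Hist1h1a, chr13:23856258-23856287, plus strand: aacGGCTCTTTTCAGAGCCaccaacataac
Hist1h2be, chr13:23677389-23677418, minus strand: aaaGGCTCTTTTCAGAGCCacccaacagtt
Hist1h4d, chr13:23673816-23673845, plus strand: aaaGGCCCTTTTCAGGGCCactaccttctc
Hist2h2ac, chr3:96024330-96024359, minus strand: aaaGGCTCTTTTTAGAGCCaccaaatcttt
Hist1h2bp, chr13:21879789-21879818, plus strand: aaaGGCTCTTTTCAGAGCCacccacattct
Hist3h2a, chr11:58768671-58768700, plus strand: aaaGGCTCTTTTCAGAGCCacccacaacct
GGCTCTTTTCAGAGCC was the most common form, in 39 members of the H1, H2A, H2B and H3 classes. The form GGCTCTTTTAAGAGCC, found in 9 members, included Hist1h1t and Hist1h2ba, whereas Hist1h2aa carried the common form. The H4 genes had forms of their own, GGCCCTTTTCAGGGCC in 8 members, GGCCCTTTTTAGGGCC in 2 and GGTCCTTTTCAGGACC in 2, and Hist2h2ac alone had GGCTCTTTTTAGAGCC.

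Hist1h2aa and Hist1h2ba are divergent neighbours that share 1 intergenic promoter. The 250 bases before the RefSeq start of Hist1h2aa (listed there as H2ac1) are shown from GRCm38.p6, chr13:23934187-23934436, plus strand, with matches on either strand in capitals. The motifs searched were the TATA box (TATAAA), the CCAAT box, the octamer of H2B promoters (ATTTGCAT), the AAACACA motif of H1 promoters and an E2F-type motif (TTTNGCGC).
Hist1h2aa: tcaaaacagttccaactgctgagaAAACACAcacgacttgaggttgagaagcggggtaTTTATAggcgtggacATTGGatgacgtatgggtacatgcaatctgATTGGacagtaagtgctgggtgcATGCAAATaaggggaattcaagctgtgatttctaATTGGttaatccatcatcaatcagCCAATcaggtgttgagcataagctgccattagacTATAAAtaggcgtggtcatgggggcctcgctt
This interval held 2 matches to TATAAA, 1 in each orientation, 4 to CCAAT, 1 to ATTTGCAT and 1 to AAACACA. Over the 61 members with a RefSeq promoter (250 bases before to 50 after the start), TATAAA was found in 35 (57.4%, against 15.7% of 27025 promoters), CCAAT in 52 (85.2% against 41.1%), ATTTGCAT in 14 (23% against 1.97%), TTTNGCGC in 13 (21.3% against 1.57%) and AAACACA in 9 (14.8% against 8.22%). A match is a description of the letters, and the members are related by duplication. The corresponding 250 bases of Hist1h1t (H1f6 in RefSeq; GRCm38.p6, chr13:23695561-23695810, plus strand) had 1 AAACACA and 1 CCAAT.
Hist1h1t: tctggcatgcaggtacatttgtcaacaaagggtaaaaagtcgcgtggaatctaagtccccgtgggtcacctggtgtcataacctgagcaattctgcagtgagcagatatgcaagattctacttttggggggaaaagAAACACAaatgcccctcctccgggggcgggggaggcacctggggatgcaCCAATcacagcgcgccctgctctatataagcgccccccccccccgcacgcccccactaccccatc

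Many members are nearly identical in sequence, which limits what a read count of a single gene can show. Over the annotated exons, 27 members shared more than 50% of their 50-base windows with another member, and 6 shared every window (Hist1h2ao, Hist1h2ap, Hist1h2bq, Hist1h2br, Hist2h2aa1 and Hist2h2aa2). Another 6 shared none (Hist1h1a, Hist1h1b, Hist1h1t, Hist2h2bb, Hist2h2be and Hist4h4). How the counting treated reads that fit several genes, and whether it used the strand, is not given in the sources used here, so values of members with shared windows are uncertain by that much. Hist1h2ap, Hist1h2bq, Hist1h2br and Hist2h2aa2 were at 0 counts in all 12 whole-testis libraries.

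Library totals ranged from 10437683 to 42055813 counts in whole testis and from 47740650 to 98545423 in purified cells, and intervals of single counts cover counting error only. The members' share of all counts was 0.029% to 0.1334% in whole testis and 0.004985% to 0.01753% in the purified cells. In whole testis 55 to 63 members had a count. In RS, WT libraries had counts in 23 to 31 members, CTCF HET libraries in 31 to 39, BORIS KO libraries in 32 to 40 and the libraries labelled CM in 12 to 21. In SC the numbers were 24 to 27, 9 to 14, 28 to 30 and 15 to 21 in the same order. The SC libraries labelled CTCF HET stood apart, with a count in 12018 to 13406 genes, against 17631 to 17683 in WT SC. So did the libraries labelled CM, with 14932 to 16670 genes in RS, against 17504 to 17985 in WT RS, and 14145 to 16666 in SC. Among the targeted genes, Ctcf in whole testis was at 45.1, 40.9 and 42.1 CPM (counts scaled to library size with TMM factors) in WT. Its CTCF HET libraries were at 27.7, 30.3 and 22.9 CPM, those of BORIS KO at 30.7, 38.8 and 34.1, and those of CM at 26.4, 26.8 and 24.3, the latter below WT by edgeR's test (log2 fold change -0.74 ± 0.21, adjusted p = 0.0329). In the RS libraries labelled CM, Ctcf was at 171, 45.5 and 38.4 CPM, against 48, 30 and 28.4 in WT, so these libraries do not show the loss that their label names. In SC, Ctcf was at 36 and 33.6 CPM in WT, at 41.7, 49.5 and 29.9 in the libraries labelled CTCF HET and at 89.3, 34.8 and 36.4 in those labelled CM, so no loss is seen there either. The RS libraries of CTCF HET, at 33.1, 21.8 and 24.6 CPM, overlapped WT. Ctcfl was low throughout whole testis, at 0.509, 0.596 and 0.711 CPM in WT, 0.2, 0.401 and 0.165 in BORIS KO, and 0.194, 0.122 and 0.157 in CM. In RS, Ctcfl was at 2.8, 4.91 and 3.26 CPM in WT and still at 2.06, 2.16 and 2.38 in BORIS KO, that is 149, 175 and 184 counts. In SC it had 6 and 5 counts in WT and 1, 8 and 0 in BORIS KO, too few to check the label. Whether the counted reads lie in the deleted part of Ctcfl cannot be told from a count per gene.

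In WT whole testis, the 2 testis-specific genes Hist1h2ba and Hist1h1t held 59.7% of the summed CPM of the 68 members, and the 10 highest members held 85.5%. Hist1h2ba (TH2B) was at 80.3, 132 and 193 CPM, and Hist1h1t (H1t) at 100, 140 and 154 CPM. On the scale per exon length the order was Hist1h2ba (mean 347.1 CPM per kb), Hist1h1t (144.6), Hist1h2aa (49.5), Hist1h4c (23.5) and the pseudogene Hist3h2bb-ps (22.1), followed by Hist1h2bp (16.8) and Hist1h1a (16.4). The WT libraries of the first 3 did not overlap on this scale, whereas the libraries of the lower 4 overlapped one another, so their order is within the spread. Most of the other members were low: 33 of the 68 had at least 10 counts in every WT library.

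The poly(A) libraries gave another order of members. In WT RS, Hist2h2be, Hist1h2bp and Hist3h2a held 84.8% of the members' CPM, and in WT SC Hist2h2be, Hist3h2a and Hist2h3c1 held 90.2%. Hist2h2be, an H2B gene with no stem-loop match within 150 bases of its stop, was at 17.6, 27.4 and 26.1 CPM in WT RS and at 93.6 and 78.9 CPM in WT SC. Hist3h2a (H2A) was at 11.9, 15.7 and 16.5 CPM in WT RS and at 39 and 37 CPM in WT SC. Hist1h2bp (H2B) was at 16.8, 21.7 and 23 CPM in WT RS and at 2.05 and 2.25 CPM in WT SC. Each of the latter members has a stem-loop, but its annotated exons run on behind it, for 1487 bases in Hist3h2a, 1166 in Hist2h3c1 and 228 in Hist1h2bp. A long annotated end was no rule, since Hist1h1d with 3050 bases behind the stem-loop and Hist1h2ac with 2010 were at most at 0.206 CPM in WT RS. The testis-specific genes were low here: Hist1h1t was at 1.32, 1.23 and 0.863 CPM in WT RS and at 0.754 and 0.774 CPM in WT SC. Of the 68 members, 33 had no count in any WT RS library and 39 had none in WT SC, which allows up to 3 counts over the libraries of a group. Whole testis and purified cells differ in RNA selection, platform and aligner as well as in cells, so these effects cannot be told apart between the tables.

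Within the poly(A) table, RS and SC of WT were compared to ask which members differ between the meiotic and the haploid stage. Of 20 members tested, 5 were higher in RS and 10 were lower (edgeR quasi-likelihood test with Benjamini-Hochberg adjustment, called at adjusted p under 0.05), where 35.8% of all 16052 genes were higher and 34.2% lower. Higher in RS was Hist1h2bp, by 3.35 ± 0.22 (log2 fold change ± SE, adjusted p = 8.04e-06), with all 3 RS libraries above both SC libraries. Hist1h4a was at 1.29, 1.5 and 1.28 CPM in RS and at 0.0135 and 0.0534 in SC, that is 1 and 4 counts. Hist1h2bc, at 1.83, 2.71 and 2.42 CPM in RS and 0.512 and 0.347 in SC, and Hist1h3a were also higher. Hist1h3f had 0 counts in both SC libraries and 24 counts in the RS libraries together, which is at least 6.21-fold higher in RS when the SC group is set to 3 counts. That bound covers counting error only. Lower in RS were the testis-specific pair Hist1h2aa (log2 fold change -2.67 ± 0.51, adjusted p = 0.00238) and Hist1h2ba (-1.99 ± 0.46, adjusted p = 0.0063). Hist1h2aa was at 0.0888, 0.144 and 0.244 CPM in RS and at 1.06 and 1.05 in SC. Hist2h2be (-1.76 ± 0.21), Hist3h2a (-1.28 ± 0.17) and Hist2h3c1 (-2.49 ± 0.36) were lower in RS as well, without overlap of the libraries. The remaining lower members were Hist3h2bb-ps, Hist2h2ac, Hist2h2aa1, Hist1h4b and Hist2h3c2. Hist1h1t did not pass the test (0.67 on the log2 scale). As both libraries were selected for poly(A), values of stem-loop members may depend on how their RNA was captured, which was not tested. Spermatocyte markers summed to 950 to 1138 CPM in WT RS and 3253 to 3585 in WT SC (2 called higher in RS, 5 lower). For spermatogonial markers the sums were 23.1 to 28.8 and 6.56 to 6.69 CPM (5 of 7 tested called higher). Their part in the values was not tested.

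In whole testis, several canonical histone genes were higher in CM than in WT, while none of the 3 testis-specific genes passed the test. Of 42 members tested without a block for library number, 15 were higher and 0 lower. Of all 16378 genes, 16.4% were called higher. The count covers members that passed a filter on low counts, and 26 of the 68 did not pass it. The median log2 fold change was 1.02 over the tested members and 0.0035 over all genes. By class, 4 of 6 H1 genes, 0 of 6 H2A genes, 6 of 14 H2B genes, 2 of 6 H3 genes and 3 of 10 H4 genes were higher. In 14 of the 15 the CM libraries lay above every WT library, and Hist1h1c overlapped. A call between groups of 3 libraries favours such separation, so it is no further evidence.

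**Figure D1:**
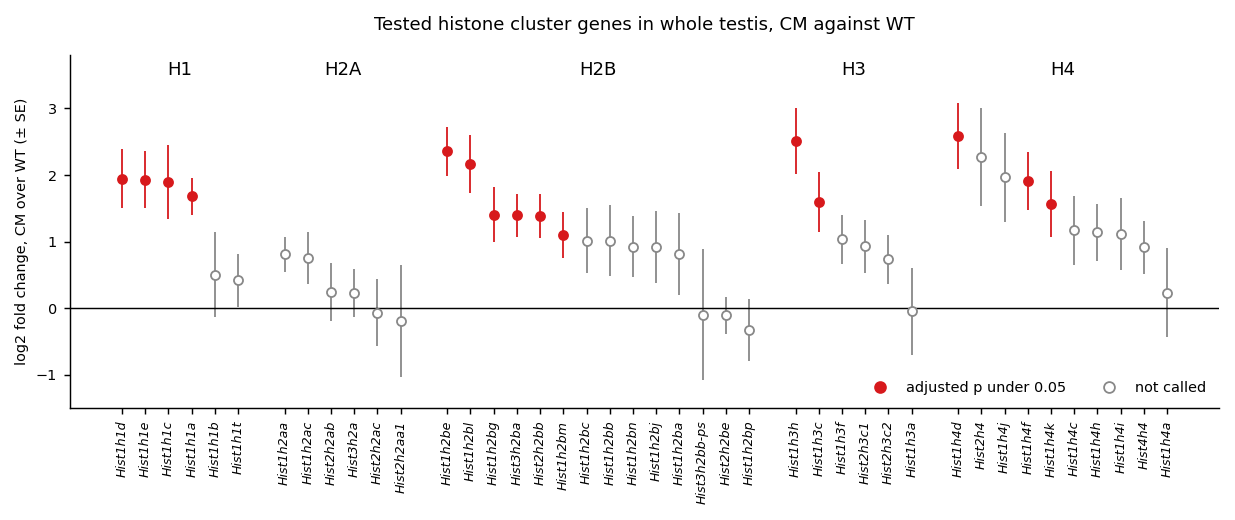
Log2 fold change of CM over WT in whole testis (vertical axis, bars are SE) for the 42 tested histone cluster genes, ordered by class; red filled points passed adjusted p under 0.05 and open grey points did not. All 15 filled points lie above 0, and none is an H2A gene.

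Among the linker histones, Hist1h1a, a somatic-type H1 that spermatogonia also express, was at 13.9, 10.7 and 12.1 CPM in WT and at 27.7, 42.5 and 49.3 in CM. Its CTCF HET libraries were at 18.1, 13.7 and 22.4 CPM and its BORIS KO libraries at 27, 40.7 and 40.8. The CM value was 1.68 ± 0.28 above WT on the log2 scale (adjusted p = 0.0154), with no overlap. Hist1h1d was at 1.07, 1.06 and 1.07 CPM in WT and at 2.44, 3.35 and 6.92 in CM. Hist1h1e was at 4.69, 2.85 and 4.98 CPM in WT and at 11.7, 10.2 and 26.7 in CM. Hist1h1c was at 4.72, 4.57 and 7.56 CPM in WT and at 7.38, 16.8 and 39.3 in CM, so that its lowest CM library fell among the WT libraries. These genes differed from WT by 1.95 ± 0.44, 1.93 ± 0.43 and 1.89 ± 0.56 on the log2 scale. Hist1h1b was low in all genotypes and did not pass (0.50, adjusted p = 0.574).

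The core histone genes with the smallest adjusted p were of the H2B, H3 and H4 classes. Hist1h2be was at 1.7, 1.19 and 2.13 CPM in WT and at 6.73, 7.32 and 12 in CM. Its CTCF HET libraries were at 2.85, 2.56 and 3.15 CPM and its BORIS KO libraries at 3.03, 4.09 and 4.95. Its CM libraries lay above those of every other genotype, and it differed from WT by 2.36 ± 0.37 (adjusted p = 0.0151). Hist1h4d was at 1.05, 1.39 and 1.78 CPM in WT and at 4.53, 6.4 and 14.5 in CM, a log2 difference of 2.59 ± 0.49 (adjusted p = 0.0161). Hist3h2ba, an H2B gene, was at 2.29, 1.72 and 1.42 CPM in WT and at 5.78, 4.21 and 4.64 in CM, while BORIS KO libraries were at 5.87, 5.62 and 5.56. Its CTCF HET libraries, at 2.35, 1.22 and 1.52 CPM, overlapped WT, and the CM difference was 1.39 ± 0.32 (adjusted p = 0.0201). Hist2h2bb, which shares no window with another member, was at 5.91, 3.25 and 5.16 CPM in WT and at 15.5, 9.33 and 13.2 in CM. Hist1h3h rested on 9, 2 and 2 counts in WT and 70, 13 and 12 in CM. Hist1h2bl, Hist1h4f, Hist1h3c, Hist1h2bg, Hist1h4k and Hist1h2bm made up the rest of the called members, with log2 fold changes from 1.10 to 2.16.

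The testis-specific genes showed no called difference in CM. Hist1h2ba was at 53.3, 283 and 384 CPM in CM, against 80.3, 132 and 193 in WT, so the CM range enclosed the WT range. Hist1h1t was at 79.9, 202 and 251 CPM in CM, and differed from WT by 0.42 ± 0.40 on the log2 scale (adjusted p = 0.449). Hist1h2aa was at 16.7, 17.7 and 23.5 CPM in WT and at 31.7, 27.7 and 43.2 in CM, without overlap, with a difference of 0.81 ± 0.26 (adjusted p = 0.051). Hist3h2a and Hist2h2be, which lead in the poly(A) libraries of purified cells, differed by 0.23 and -0.11 on the log2 scale, with overlapping libraries. In every genotype the library numbered 1, which was also the deepest, had the lowest summed level of the members. Compared within a number, the summed CPM of the 68 members was 354.1 in WT and 358.4 in CM for number 1, 423.2 and 793 for number 2, and 561.6 and 1095 for number 3.

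**Figure D2:**
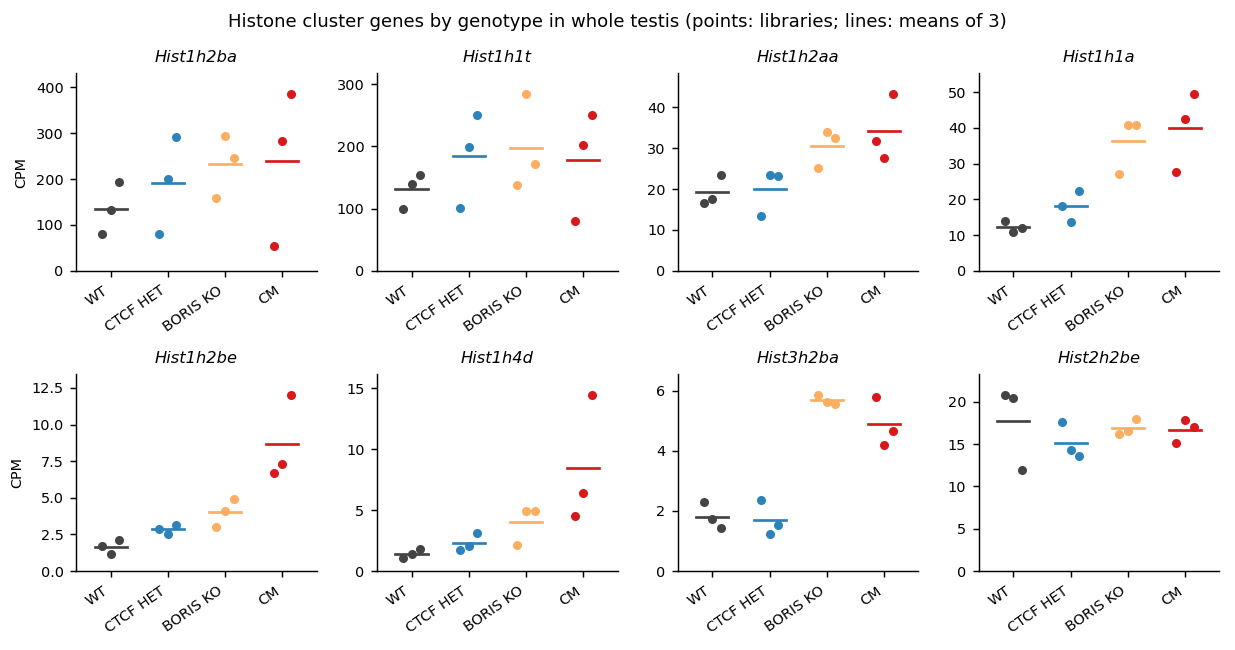
CPM on the vertical axes of 8 histone cluster genes in whole testis by genotype; points are libraries and lines are means of 3. Hist1h1a, Hist1h2be, Hist1h4d and Hist3h2ba of CM lie above every WT library, while Hist1h2ba, Hist1h1t and Hist2h2be overlap.

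With the library number as a block, 22 members were higher in CM (23.8% of all genes higher), including all 15 above, and Hist1h2aa passed with an adjusted p of 0.00983. Without the block, the count of 15 fell to 0 without WT library 2, WT library 3 or CM library 3, to 7 without WT library 1, and rose to 23 without CM library 1. Calls over all genes ranged from 3 to 4920 in these fits, against 2693 higher and 1442 lower with every library. Markers of other cells moved with genotype in the same libraries. The summed CPM of 8 spermatogonial markers was 55.5 to 71.6 in WT and 118.2 to 403.4 in CM, with 2 of 8 called higher and a median log2 change of 0.11 over the 8. For 7 Sertoli markers it was 265.3 to 410.1 and 649.3 to 1332 (4 called higher), for 6 Leydig markers 355.3 to 557.7 and 1738 to 3438 (4 called higher), and for 6 peritubular and vascular markers 49.7 to 71.6 and 127.4 to 235.9 (3 called higher). Of 6 macrophage markers 4 were called higher, while their sum was 476 to 658.3 in WT and 468.4 to 575.9 in CM. The 8 round spermatid markers fell from 14050 to 22550 in WT to 3868 to 12150 in CM (3 called lower), and 1 of 8 spermatocyte markers was called lower. Every marker of these lists in the table had counts in WT and in CM, while 2 of 3 red blood cell markers, Hba-a1 and Hbb-b1, were at 0 in CM. Fewer cells of a type and less RNA per cell cannot be told apart in such bulk samples, and the part of the cell mixture in the histone values was not tested.

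In whole testis, no member was called in the single mutants by the main fit, which has no block for library number. In CTCF HET, 0 of 33 members tested passed edgeR's quasi-likelihood test, against 0.00621% of all genes, and DESeq2 also called 0 members. By edgeR's test, 3 of the 33 had an unadjusted p under 0.05, as did 424 of all 16097 genes. In BORIS KO, 0 of 37 members passed (0.0551% of all genes), while 17 had an unadjusted p under 0.05, as did 16.6% of all genes, and DESeq2 called 5. The smallest adjusted p values of BORIS KO were 0.0932 for Hist1h1a (log2 fold change 1.58 ± 0.22) and 0.0948 for Hist3h2ba (1.63 ± 0.24), both without overlap with WT. The summed CPM of the Leydig markers was 653.2 to 1410 in BORIS KO against 355.3 to 557.7 in WT. That of the spermatogonial markers was 92.8 to 122.2 against 55.5 to 71.6, and that of the Sertoli markers 469.6 to 595.5 against 265.3 to 410.1, with no overlap and 0 markers called in any of these lists by edgeR's test. Their part in the values was not tested. With the library number as a block, 10 members were higher in BORIS KO (3.02% of all genes higher), namely Hist1h1a, Hist1h2aa, Hist1h2ba, Hist1h2be, Hist1h2bg, Hist1h2bm, Hist1h4d, Hist2h2bb, Hist2h3c2 and Hist3h2ba. CM and BORIS KO were also compared directly. Of 45 members 0 passed (0.006% of all genes) and DESeq2 called 0. By edgeR's test, 2 had an unadjusted p under 0.05, as did 3594 of all 16655 genes. Hist1h2be was 1.07 ± 0.34 higher in CM than in BORIS KO on the log2 scale (adjusted p = 0.15), and with the block it was the only member called, with an adjusted p of 0.0468, where 3.99% of all genes were higher. The departure of CM from the sum of the single mutants was called in 0 of 46 members (0 at an unadjusted p under 0.05 and 0 by DESeq2) and in 0% of all genes. Of all 17185 genes, 1713 had an unadjusted p under 0.05 by edgeR's test.

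In purified BORIS KO cells, members were called in both directions, as were large shares of all genes, so such calls do not set the members apart. Of 20 members tested in RS, 7 were higher and 2 lower, where 26.8% of all genes were higher and 29% lower. Of 18 tested in SC, 8 were higher and 4 lower, against 29.1% and 28.1% of all genes. In each of these calls the KO libraries did not overlap WT, which a call between so few libraries favours. The comparisons in RS and in SC use different libraries. In this fit, which has no GC offset, Hist1h2aa, Hist1h2bp, Hist2h2ac and Hist3h2ba were higher in both cell types. Hist2h3c1 and Hist2h2be were lower in both.

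The H3 gene Hist2h3c1 showed the lowest adjusted p in either cell type. It was at 1.22, 2.67 and 2.81 CPM in WT RS and at 0.511, 0.592 and 0.569 in BORIS KO RS, a log2 difference of -2.04 ± 0.36 (adjusted p = 0.00122). In SC it was at 15.4 and 11.3 CPM in WT and at 5.4, 4.85 and 4.92 in BORIS KO, a difference of -1.40 ± 0.13 (adjusted p = 5.19e-06). The call held at adjusted p under 0.05 in all 12 alternative fits in RS and all 11 in SC, but in RS its adjusted p is above the stricter threshold of 0.001. The libraries labelled CM were at 1.55, 1.08 and 2.34 CPM in RS and at 8.93, 11.6 and 14 in SC, within or close to the WT range. The annotated Hist2h3c1 (chr3:96049477-96052431) overlaps Hist2h2aa1 (chr3:96049461-96050038) on the same strand, and Hist2h2aa1 was called higher in BORIS KO RS. The annotated pseudogene Hist2h3c2, a near copy, was lower in BORIS KO SC (-0.96 ± 0.26, adjusted p = 0.0079).

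Hist2h2be, the member with the highest CPM in WT RS and WT SC (per kb Hist1h2bp was higher in WT RS, at 29 against 9.06), was at 13, 13.2 and 10.1 CPM in BORIS KO RS, below 17.6, 27.4 and 26.1 in WT (-1.01 ± 0.20, adjusted p = 0.00216). In SC it was at 68.2, 69.8 and 68.8 CPM against 93.6 and 78.9 in WT (-0.33 ± 0.07, adjusted p = 0.00187). Hist1h2bc (H2B) was at 0.0981, 0.154 and 0.162 CPM in BORIS KO SC against 0.512 and 0.347 in WT, and was lower (-1.62 ± 0.36, adjusted p = 0.00214). In RS it was at 0.0138, 0.296 and 1.51 CPM in BORIS KO and 1.83, 2.71 and 2.42 in WT, with no overlap, and it did not pass.

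Among the higher members, Hist1h2bp was at 30.1, 27.9 and 26 CPM in BORIS KO RS and at 16.8, 21.7 and 23 in WT (0.41 ± 0.15, adjusted p = 0.0431), and in SC at 3.06, 3.8 and 3.4 against 2.05 and 2.25 (0.67 ± 0.14, adjusted p = 0.00151). Hist3h2ba was at 0.589, 0.747 and 0.5 CPM in BORIS KO SC against 0.121 and 0.147 in WT, that is 9 and 11 counts in WT (2.18 ± 0.34, adjusted p = 0.000155). This gene was also the one with the second smallest p of BORIS KO in whole testis. Hist1h1t was higher in BORIS KO SC, at 1.7, 1.58 and 1.41 CPM against 0.754 and 0.774 (1.03 ± 0.19, adjusted p = 0.000514). Hist1h2aa was at 0.553, 0.407 and 0.505 CPM in BORIS KO RS against 0.0888, 0.144 and 0.244 in WT, and at 1.78, 1.58 and 1.25 against 1.06 and 1.05 in SC. Hist1h4a, one of the H4 genes, was at 2.72, 3.03 and 3.09 CPM in BORIS KO RS against 1.29, 1.5 and 1.28 (1.08 ± 0.20, adjusted p = 0.00174). Hist1h4c and Hist2h2aa1 in RS, and Hist2h2ab, Hist1h4h and Hist3h2a in SC, were the other higher members.

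**Figure D3:**
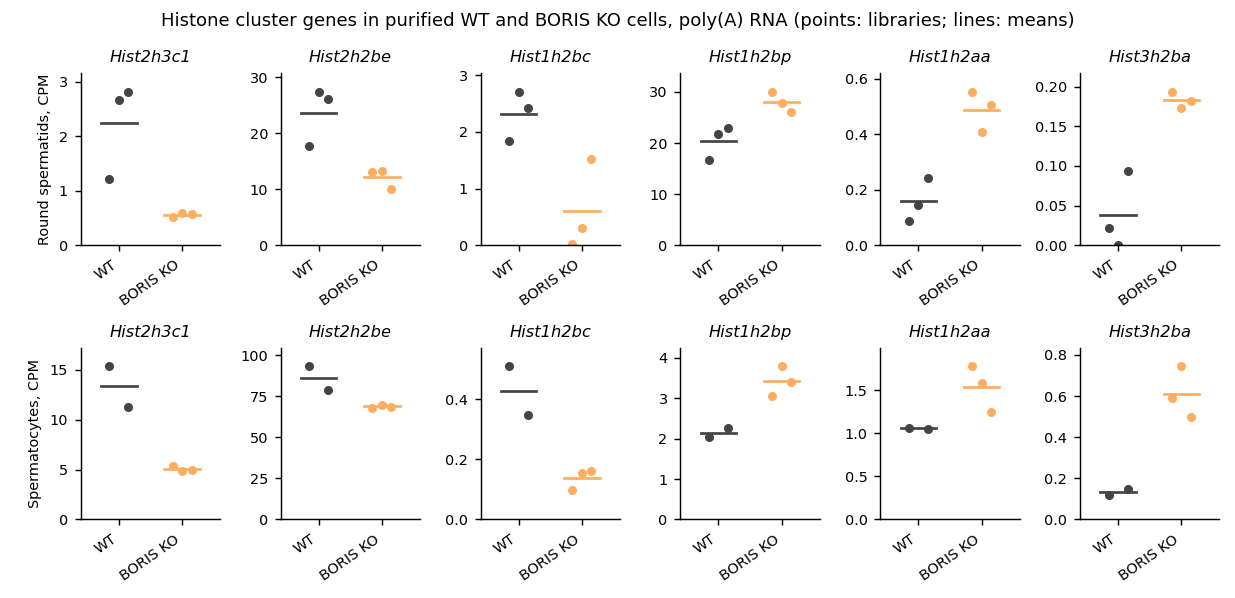
CPM on the vertical axes of 6 histone cluster genes in purified round spermatids (top) and spermatocytes (bottom) of WT and BORIS KO; points are libraries and lines are means. Hist2h3c1 and Hist2h2be of BORIS KO lie below every WT library in both cell types, and Hist1h2bp, Hist1h2aa and Hist3h2ba above.

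With an offset that removed each library's trend on GC content, 0 members were higher and 3 lower in BORIS KO RS, where 19.3% of all genes were higher and 18.4% lower. In SC 4 members were higher and 5 lower, against 23.1% and 19.7% of all genes. In RS the log2 changes of the members no longer called were then 0.33 for Hist1h4a, 0.18 for Hist1h2bp, 0.48 for Hist1h2aa, 1.15 for Hist1h4c, 0.18 for Hist2h2ac and 1.38 for Hist3h2ba. In SC those no longer called included Hist2h2be at -0.025, Hist2h2ac at 0.11, Hist2h2ab at 0.38 and Hist1h4h at 0.098. Hist2h2be thus stayed called only in RS, at -0.48. The log2 change of Hist2h2aa1 in RS then turned to -0.12, and that of Hist1h2aa in SC to -0.077, while Hist2h3c1 was at -2.66 in RS and -1.73 in SC. Leaving out BORIS KO RS library 1 or 2 lowered the RS count from 9 to 3 and leaving out library 3 lowered it to 5, and the SC count fell from 12 to 7 without either WT library. Calls over all genes in RS were 6953 to 10178 with 1 library left out, against 4162 higher and 4496 lower with every library. The sum of 8 spermatocyte markers was 950 to 1138 CPM in WT RS and 579.1 to 652.2 in BORIS KO RS (5 called lower, 1 higher). In SC it was 3253 to 3585 in WT and 2871 to 2998 in BORIS KO (5 called lower). The 8 round spermatid markers summed to 41.8 to 42.2 CPM in WT SC and 50.1 to 69 in BORIS KO SC (2 called higher), beside the rise of Hist1h2bp, a gene higher in WT RS than in WT SC. The part of these shifts in the histone values was not tested. The difference between the BORIS KO effects in RS and SC, a contrast added after the data were seen, was called in 0 of 22 members (13.4% of all genes). DESeq2 called 1. By edgeR's test, 3 members had an unadjusted p under 0.05, as did 4975 of all 16519 genes.

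In CTCF HET RS, 2 of 18 members were lower and 0 higher, where 12.8% of all genes were lower. Hist1h2bp was at 14.1, 15.4 and 10.9 CPM against 16.8, 21.7 and 23 in WT (-0.63 ± 0.18, adjusted p = 0.0352), and Hist1h3a at 0.252, 0.296 and 0.324 against 0.911, 0.657 and 0.469 (-1.26 ± 0.39, adjusted p = 0.0458). The count was 0 without WT library 2 or 3 or without any CTCF HET library, and 5 without WT library 1. Calls over all genes ranged from 929 to 6516 in these fits, against 1449 higher and 1956 lower with every library. The 8 round spermatid markers summed to 1348 to 1449 CPM in WT RS and 973 to 1041 in CTCF HET RS (5 called lower, median log2 change -0.54), and their part in the values was not tested. In the SC libraries labelled CTCF HET, 1 of 16 members was called, with 6.77% of all genes higher: Hist2h2be was at 107, 116 and 102 CPM against 93.6 and 78.9 in WT (0.45 ± 0.12, adjusted p = 0.0397). That count was 0 without either WT library or without CTCF HET library 1 or 2, and 5 without library 3. In these libraries several members were missing: Hist1h2aa had 0 counts in all 3 SC libraries labelled CTCF HET and 158 in the WT SC libraries together, which is at least 56.3-fold lower with that group set to 3 counts. Hist1h4c and Hist3h2ba were at 0 there as well, with 28 and 20 counts in WT. The bound covers counting error only, and edgeR's test called no H2A gene in this comparison. Genes with a count numbered 12018 to 13406 in these libraries and 17631 to 17683 in WT SC.

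In the libraries labelled CM, 0 of 18 members passed in RS (0.00654% of all genes), with 0 at an unadjusted p under 0.05 and 0 by DESeq2. In SC 0 of 19 passed (0.604% of all genes), with 2 at an unadjusted p under 0.05 and 2 by DESeq2. Over all genes, edgeR's unadjusted p was under 0.05 in 3136 of 15298 in RS and 4391 of 14747 in SC. The spread between these libraries was wide: Hist1h1t was at 1.24, 0.282 and 0 CPM in RS, and Hist2h2ac at 1.96, 0.26 and 0 in SC. The difference between the CM effects in RS and SC was called in 0 of 25 members (3.51% of all genes), and DESeq2 called 1. By edgeR's test, 1 member had an unadjusted p under 0.05, as did 2602 of all 17077 genes.

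The genes that make and handle histone mRNA and protein were examined from lists that are no members. Of 15 genes of histone transcription and 3-prime processing, 0 passed in CM whole testis by edgeR's test, with a median log2 change of -0.11; Slbp was at -0.26 ± 0.25 and Npat, the coactivator of histone genes in S phase, at -0.28 ± 0.22. In BORIS KO RS 4 of them were higher and 7 lower, and in SC 4 and 9. The shares over all genes were 26.8% higher and 29% lower in RS, 29.1% and 28.1% in SC, and 16.4% higher in CM whole testis, against which all counts of these lists are to be read. Npat was lower in BORIS KO RS (-0.95 ± 0.10, adjusted p = 6.66e-05) and SC (-0.78 ± 0.07, adjusted p = 4.07e-06), and Slbp was lower in RS (-0.89 ± 0.10) and SC (-0.36 ± 0.06). Of 10 chaperones in BORIS KO, 1 was higher and 3 lower in RS, with a median log2 change of 0.15. In SC 2 were higher and 3 lower, with a median of 0.033. Nasp, the chaperone of H1 and of H3-H4, was among those lower in RS (-1.16 ± 0.06) and SC (-0.81 ± 0.09). Of 16 S-phase genes, 5 were higher and 3 lower in BORIS KO RS, and 5 and 3 in SC. Of the 16 S-phase genes, 1 was higher in CM whole testis, namely Tyms (1.26 ± 0.36, adjusted p = 0.0361), and of 10 chaperones 2 were higher, Rbbp7 (1.41 ± 0.33) and Hira (0.85 ± 0.25). Replacement variants outside the clusters, among them H2afx with its stem-loop, were higher in 6 of 11 and lower in 3 of 11 genes in BORIS KO RS, and in 8 and 2 of 10 in SC. H2afx was at 2.21 ± 0.25 in RS and 1.20 ± 0.09 in SC, and H3f3a, which encodes H3.3, at -1.91 ± 0.17 and -0.93 ± 0.15. In CM whole testis, H1f0 (1.81 ± 0.30) and the centromeric Cenpa (1.92 ± 0.57) were higher, 2 of 11. The genes of these lists were not examined under the alternative fits, such as the GC offset, the block or a library left out.

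The deposited ChIP-seq peak lists, 1 for each antibody and genotype of testis cells, were compared with the starts of the members within 1 kb. There are no replicate lists, so these counts have no error and no test. Of the 68 members, 23 had a CTCF peak in WT (33.8%, against 27.2% of 21897 annotated genes) and 5 in CM (7.35% against 9.6%), from lists of 34625 and 21525 peaks. Only Hist1h4c and Hist1h4j had one in both lists. The WT peaks at members were mostly of low height: 1 of the 23 members kept a peak when the list was limited to its upper 50% by height. A WT CTCF peak at chr13:24026355-24026690, of height 153 and at rank 27465 of 34625, lay inside the Hist1h2aa exon, 24 bases from the start of Hist1h2aa and 330 from that of Hist1h2ba, and the CM list had no peak there.

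BORIS peaks in WT were at 10 members (14.7%, against 13.8% of all genes), of which 4 also had a CTCF peak. They were Hist1h2ag and Hist1h2bj, Hist1h2ah and Hist1h2bk, Hist1h3a and Hist1h4a (pairs with a shared peak), Hist1h4j, Hist1h4k, Hist2h3c1 and Hist2h3c2. The highest were those at Hist2h3c2 (chr3:96042820-96043173, height 300, rank 730 of 7652) and at Hist2h3c1 (chr3:96050490-96050853, height 289, rank 774). Of the 50-base windows of the latter peak, 81% also occurred in the former, so reads may have been placed at either copy. Hist2h3c1 was lower in BORIS KO RS and SC in the fit without the GC offset, and so was Hist2h2be, which is not among these 10. Hist1h4a, with a peak of height 184 at chr13:23853090-23853514, was higher in BORIS KO RS. Hist1h4k was the only one of the 15 members higher in CM whole testis that had a BORIS peak, whereas 6 of the 27 tested and not called had one.

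RNA polymerase II (Pol II) peaks were at 35 members in WT (51.5%, against 40.2% of all genes) and at 51 in CM (75% against 47.4%), with 34 members in both lists, 17 in CM only and 1 in WT only. For H3K4me3, a mark of active promoters, 19 members had a peak in WT (27.9% against 52.6%) and 35 in CM (51.5% against 57.4%), and all 19 were among the 35. The CM H3K4me3 list held fewer peaks than the WT list (20432 against 34347), the CM Pol II list more (28407 against 25192). Among the 15 members higher in CM whole testis, 6 had a Pol II peak in WT and 13 in CM, and among the 27 tested and not called 22 and 25 had one. Hist1h2aa and Hist1h2ba lay under 1 Pol II peak of score 3100 in both genotypes (chr13:24020778-24027841 in WT). The same score recurs at peaks of other members, such as Hist2h2aa1 in WT and Hist1h1c in CM, so equal scores do not show equal signal. Hist1h1t had a Pol II peak in both genotypes and an H3K4me3 peak in CM only. The chromatin came from male germ cell preparations of mixed stages, and the marker shifts given above were measured in RNA of such preparations.

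**Figure D4:**
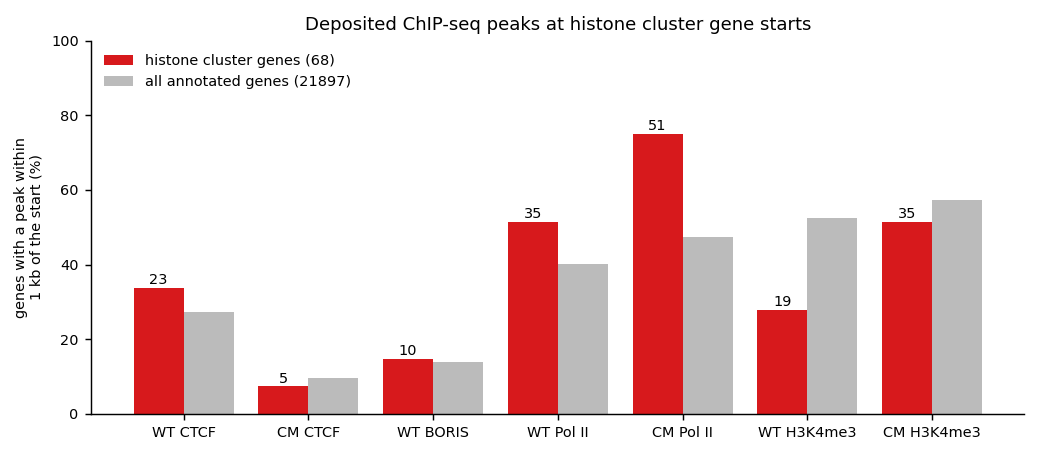
Percent of genes (vertical axis) with a deposited peak within 1 kb of a start, for the 68 histone cluster genes and for all 21897 annotated genes, in each of 7 lists; numbers above bars are members. CTCF peaks at members go from 23 in WT to 5 in CM, and Pol II peaks from 35 to 51.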

How the data were processed

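Per the labels and the study's methods, the authors deposited raw counts per gene symbol. Whole-testis RNA was rRNA-depleted and read on an Ion Proton, with TopHat2 and then Bowtie2 on unmapped reads. RS and SC RNA was poly(A)-selected and read on an Illumina instrument, with STAR, both to mm9; the counting tool, annotation and strand setting are not given in the sources used here. The deposited CTCF and BORIS peak lists give the signal height of each peak (MACS, PeakSplitter), and the deposited Pol II and H3K4me3 lists a MACS score; how replicates were combined is not stated. Of the per-sample columns, 1 matched no sample and was not used.

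Members and gene lists were chosen with earlier results of these data known. Counts were tested in R 4.3.3 with edgeR 4.0.16 (filterByExpr with a minimum count of 10 and total of 15, TMM, glmQLFit and glmQLFTest with robust fitting), pairwise between groups, adjusted over all genes tested and called at adjusted p under 0.05. Alternatives were DESeq2 1.42.0, RLE scaling, no filter, all genotypes in 1 fit, the library number as a block, offsets for GC content or length, stricter thresholds and each library left out. In counts simulated for CM whole testis and BORIS KO RS only, the tests recovered large changes set in well-counted genes. Most members in purified cells have lower counts, so the simulation does not speak for them. Per the study's methods, the whole-testis libraries of a group came from independent germ cell preparations. For RS and SC nothing says whether replicates were separate preparations, so p-values there measure the spread between libraries, which may be technical. No 2 libraries agreed within sampling noise. In whole testis, 18 of 18 same-number pairs had deviations correlated above 0.1 (r = 0.12 to 0.63), which speaks for a pairing by library number. In RS 4 of 18 and in SC 1 of 15 did. The main fits used no block in any preparation, so those of whole testis leave this pairing out. Fits with the library number as a block are given beside them as alternatives. Named were Ctcf, Ctcfl, the testis-specific and H1 members, the 10 highest members of each preparation, the 10 called members of each direction with the smallest adjusted p, and members with a CTCF or BORIS peak; other genes named were chosen after their values were seen. The exons behind the stem-loop were examined after the data were seen. CPM used TMM-scaled library sizes, and a group at 0 was set to a floor of 3 counts over the group. Sequences are from mm9 and from RefSeq promoters of GRCm38.p6, where 67 members matched by symbol or synonym and 61 had a promoter.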

Additional observations from a re-analysis of the deposited data

Results flagged for a closer look

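The difference between libraries labelled CTCF HET and WT was not the same in RS and SC in 5 of 21 members by a test of the difference itself (edgeR quasi-likelihood test on the 4 groups, a contrast added after the data were seen), where 23% of all genes were higher and 10.6% lower in the RS effect. With 4 higher and 1 lower, the members were called no more often than all genes in either direction. Relatively higher in the RS effect were Hist1h2aa (adjusted p = 0.00194), Hist2h2ac (adjusted p = 0.00796), Hist1h4c (adjusted p = 0.0224) and Hist3h2bb-ps (adjusted p = 0.024), and relatively lower was Hist1h2bp (adjusted p = 0.0162). Hist1h2aa had 17, 16 and 10 counts in CTCF HET RS, 8, 7 and 13 in WT RS and 0 in each SC library labelled CTCF HET. Hist2h2ac had 42, 26 and 14 counts in CTCF HET RS and 0, 0 and 4 in these SC libraries, and Hist1h4c 13, 30 and 9 and 0, 0 and 0. Hist3h2bb-ps was at 1.56, 1.33 and 1.03 CPM in the SC libraries labelled CTCF HET against 3 and 3.73 in WT SC. Hist1h2bp was at 4.45, 2.87 and 2.81 CPM in the SC libraries labelled CTCF HET against 2.05 and 2.25 in WT SC, and lower than WT in RS. Round spermatid markers moved in the direction of Hist1h2bp and opposite to the other 4 called members. Of 8 markers 5 were called lower in this contrast (median log2 difference -1.42). Their sum was 53.7 to 91.3 CPM in the SC libraries labelled CTCF HET against 41.8 to 42.2 in WT SC. Ctcf was at 41.7, 49.5 and 29.9 CPM in these SC libraries against 36 and 33.6 in WT SC, so they do not show the loss that their label names. They detected 12018 to 13406 genes, the fewest of all groups, and the median of the contrast over all genes was 0.33 on the log2 scale; the part of the markers and of the low number of genes in the differences was not tested. The split was 3 higher and 3 lower with RLE scaling and 3 and 2 with the GC offset, in place of 4 and 1. The count was 2 without WT SC library 1, 3 without WT SC library 2 or CTCF HET RS library 2, and 8 without SC library 3 labelled CTCF HET.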

How the results depend on the processing

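Counts below are of called members. Calls over all genes moved with the settings as well, so these counts alone do not show a change particular to the members. With the block in whole testis, 3.02% of all genes were higher in BORIS KO and 23.8% in CM, both against WT. In CM against BORIS KO the share was 3.99%. With the GC offset, 19.3% of all genes were higher and 18.4% lower in BORIS KO RS. In whole testis, BORIS KO against WT gave 5 with DESeq2, 1 without the low-count filter, 10 with the replicate block, 9 with the block and a GC offset, 12 with the block and a length offset, and 0 to 2 with 1 library left out, in place of 0. CM against WT gave 0 at adjusted p under 0.001 and fold change over 2, 22 with the replicate block, 30 with the block and a length offset, and 0 to 23 with 1 library left out, in place of 15. CM against BORIS KO gave 1 with the block, 1 with the block and a GC offset and 2 with the block and a length offset, in place of 0. In RS, CTCF HET gave 1 at fold change over 2, 0 at the stricter threshold, 1 without the filter, 0 with all genotypes in 1 fit, 0 with the block and 0 to 5 with 1 library left out, in place of 2. BORIS KO in RS gave 0 at the stricter threshold, 2 with all genotypes, 3 with the GC offset and 3 to 9 with 1 library left out, in place of 9, and the libraries labelled CM gave 2 with all genotypes, in place of 0. In SC, the libraries labelled CTCF HET gave 0 at fold change over 2, 0 at the stricter threshold, 2 with DESeq2, 0 without the filter, 5 with all genotypes, 2 with the block, 0 with the GC offset and 0 to 5 with 1 library left out, in place of 1. BORIS KO in SC gave 5 at fold change over 2, 3 at the stricter threshold, 1 with all genotypes and 7 to 14 with 1 library left out, in place of 12. The libraries labelled CM in SC gave 2 with DESeq2 and 0 to 2 with 1 library left out, in place of 0. WT RS against SC gave 9 at the stricter threshold, in place of 15. Between the effects in RS and SC, that of CM gave 1 with DESeq2 and that of BORIS KO 1 with DESeq2 and 0 to 5 with 1 library left out, in place of 0, and that of CTCF HET gave 0 at the stricter threshold, 3 with the block and 2 to 8 with 1 library left out, in place of 5. With 1 WT SC library left out, the lone library was assumed to vary like the other groups. The cause of these changes was not tested.

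Of 1224 values of single members under alternatives, 876 kept their direction and their side of the threshold, 245 lost the call, 101 gained it and 2 reversed: with the GC offset, Hist2h2aa1 in BORIS KO RS was at -0.1198 and Hist1h2aa in BORIS KO SC at -0.07731 on the log2 scale. Apart from the stricter thresholds, all alternatives kept 12 of 15 calls of WT RS against SC, 2 of 9 of BORIS KO RS, 1 of 12 of BORIS KO SC and 0 of 15 of CM whole testis. In the purified cells same-number libraries shared only a number, and the block called 7 and 10 members in BORIS KO RS and SC. Peaks at starts numbered 1 for WT CTCF, 0 for CM CTCF, 6 for WT BORIS and 17 for CM H3K4me3 in the upper 50% of each list, 1 for CM CTCF and 12 for WT H3K4me3 within 250 bases, and 11 for CM CTCF within 3 kb. Low counts limit the members in purified cells, where 48 to 52 of the 68 could not be tested against WT.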
